A study of Mus musculus with 4 samples.

Results

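The genes described here encode the transcription factor Nrf2, its inhibitor Keap1, enzymes known as Nrf2 targets, and the antioxidant enzymes of the glutathione, thioredoxin, peroxiredoxin, superoxide dismutase and pentose phosphate systems. The list names 42 genes, and 38 of them had a probe set assigned to 1 gene symbol on the array. Each of the 38 was represented by its brightest probe set, by the mean over all arrays, and all 38 were bright enough to enter, among 11546 genes of 18193 gene symbols. The other 4, G6pdx, Prdx1, Prdx5 and Prdx6, are not analysed here. RNA came from mouse embryonic fibroblasts, a connective tissue cell cultured from the embryo, and was hybridized to 4 Affymetrix Mouse Genome 430 2.0 arrays. The 4 groups held 1 array each: Wip1+/+ and Wip1-/- fibroblasts harvested at 0 h without irradiation, and the same genotypes harvested 4 h after 5 Gy of gamma radiation. Wip1, the product of Ppm1d, is a phosphatase that p53 induces and that removes phosphates from p53 itself, and the series text names p53 target genes as the purpose. The labels give neither how the allele was made nor how many embryos or cultures each sample holds. No array held unirradiated cells at 4 h, so radiation and 4 h of culture cannot be told apart. In RNA of a whole culture, fewer cells of a type and less RNA per cell cannot be told apart either.

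Nrf2, encoded by Nfe2l2, is held in the cytoplasm and degraded through Keap1, a cysteine-rich adaptor of a ubiquitin ligase. Oxidants and electrophiles modify Keap1, Nrf2 then reaches the nucleus and binds antioxidant response elements with small Maf proteins. Its known targets make and recycle glutathione, reduce thioredoxin, supply NADPH, conjugate electrophiles and degrade heme. In fibroblasts these enzymes remove superoxide and hydrogen peroxide, which are also formed when ionizing radiation splits water.

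Promoter sequences are shown because the antioxidant response element is what links many of these genes. RefSeq windows of assembly GRCm38.p6, from 250 bases before to 50 bases after each annotated start, were at hand for 36 of the 42 genes. The core letters TGACNNNGC, on either strand, stood in at least 1 window of 11 of the 36 genes (30.6%), against 14.0% of all 27025 genes with a window. The 11 were G6pdx, Gclm, Gstm5, Me1, Mt2, Nfe2l2, Pgd, Prdx1, Sod1, Srxn1 and Txnrd1. A match is a description of letters and no binding site, and the lack of one says only that the letters are not in this window. Matches wholly before the start in measured genes are printed in capitals with up to 16 flanking bases, 5′ to 3′ along the gene. In Nfe2l2 (minus strand, chr2:75704879-75704913) the first base of the match lay 240 bases before the start, and in Gclm (plus strand, chr3:122245407-122245447) 134 bases before it. In Txnrd1 (plus strand, chr10:82859098-82859138) it lay 92 bases before the start, in Sod1 (plus strand, chr16:90220690-90220730) 56 bases, and in Gstm5 (plus strand, chr3:107895796-107895836) 42 bases.
Nfe2l2: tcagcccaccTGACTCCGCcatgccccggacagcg
Gclm: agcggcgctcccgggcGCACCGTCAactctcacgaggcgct
Txnrd1: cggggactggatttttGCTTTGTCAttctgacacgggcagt
Sod1: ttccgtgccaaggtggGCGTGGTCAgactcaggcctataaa
Gstm5: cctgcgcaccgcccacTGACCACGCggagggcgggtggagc
The Nfe2l2 and Gstm5 matches read along the gene, and those of Gclm, Txnrd1 and Sod1 on the opposite strand.

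The metallothionein genes Mt1 and Mt2 lie next to each other and encode small cysteine-rich proteins that bind zinc and scavenge oxidants. Their 250 bases before the start are shown because both genes are known for induction by metals as well as oxidants. Capitals mark the metal response element cores TGCACNC and TGCGCNC and the antioxidant response element core, on either strand. The Mt1 stretch (plus strand, chr8:94178839-94179088) held 1 metal core, and the Mt2 stretch (plus strand, chr8:94172368-94172617) held 3 metal cores and 1 antioxidant core. These counts stop at the annotated start. In the 50 bases after it, not printed here, Mt1 held further metal cores beginning at bases 3 and 21, and Mt2 one beginning at base 5. The shares below count whole windows.
Mt1: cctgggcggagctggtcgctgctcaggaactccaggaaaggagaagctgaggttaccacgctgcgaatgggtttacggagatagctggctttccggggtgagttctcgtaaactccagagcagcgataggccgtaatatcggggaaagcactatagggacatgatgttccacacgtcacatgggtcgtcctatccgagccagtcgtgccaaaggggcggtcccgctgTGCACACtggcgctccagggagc
Mt2: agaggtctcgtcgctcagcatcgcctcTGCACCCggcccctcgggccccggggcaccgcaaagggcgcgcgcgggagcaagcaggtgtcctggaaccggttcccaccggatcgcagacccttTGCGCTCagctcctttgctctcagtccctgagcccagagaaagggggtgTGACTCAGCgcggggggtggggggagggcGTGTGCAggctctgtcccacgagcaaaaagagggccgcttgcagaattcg
Over all genes with a window, 14.2% held TGCACNC and 17.0% held TGCGCNC. Among the 36 listed genes the shares were 11.1% and 19.4%. The TGCGCNC match of Gclm at 138 bases before the start overlaps its antioxidant core.

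Values are signal intensities on a linear scale, and signals of different probe sets cannot be set against each other. Signals are given with the unirradiated array first. Ratios were taken after setting signals under 46.5 to that floor, so a fold against a floored signal is a lower bound. With 1 array per group there was no replicate spread, no test was run and no p-value is given, and precision is limited by how few arrays there are. The Ppm1d probe sets, which report the Wip1 gene, read 375 and 364 in Wip1+/+ and 504 and 482 on the arrays labelled Wip1-/-, and by the other probe set 317 and 463 against 219 and 561. Ppm1d signal was thus not lower on both arrays labelled Wip1-/-, and the sources used here do not place its probes relative to the deletion. The genotype is therefore given as labelled. The unirradiated array labelled Wip1-/- stood apart: over 18 spike-in control probe sets the SD of the log2 ratio was 0.44 to 0.47 in pairs with it and 0.07 to 0.10 in pairs without it. All 12 fibroblast markers passed the filter. The 15 macrophage markers summed to 10786 and 10861 in Wip1+/+ and to 2991 and 2600 on the arrays labelled Wip1-/-, with all 15 lower on both.

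Irradiation of Wip1+/+ cells asked whether the antioxidant genes differ 4 h after DNA damage. Most were close to their unirradiated signal, and 1 gene of 38, Sod3, differed by at least 2-fold. Sod3 encodes the extracellular superoxide dismutase, and it was lower. Its mean passed the filter only through its unirradiated Wip1+/+ signal, which this ratio divides by, so its counts here are a description. Over all genes 1.5% were at least 2-fold lower, and 1.58% at least 2-fold higher, against 0 of the 38. At 1.5-fold, a size counted after the data were seen, Sod3 was again the one gene lower, against 5.12% of all genes, and none of the 38 was higher, against 5.6%. In 21 of the 38 the irradiated signal was the higher one and in 17 the lower. Their median log2 ratio was 0.01, the same as over all genes to 2 decimals, 0.01. Probe sets of the same gene gave log2 ratios with an SD of 0.37 over all genes and 0.14 over 17 of these genes with several probe sets of mean signal 500 or more. It covers differences between probes and not between cultures.

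**Figure D1:**
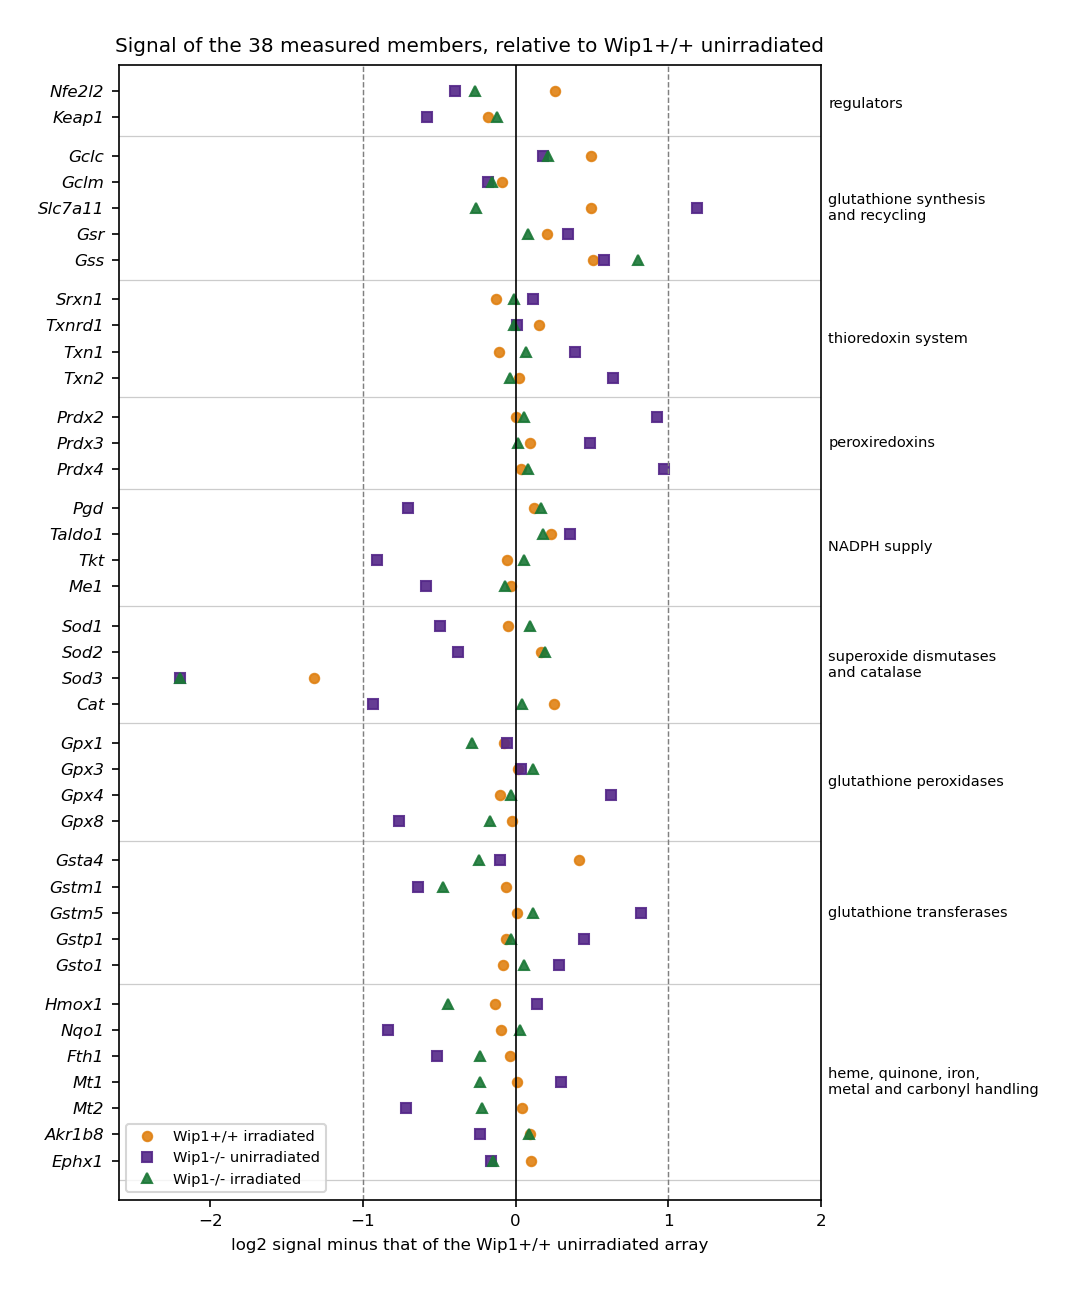
Signal of the 38 measured genes on 3 arrays, as log2 minus the Wip1+/+ unirradiated array (horizontal axis), 1 row per gene, grouped by role; dashed lines mark 2-fold and signals under 46.5 are set to 46.5. Orange points and green triangles lie near 0 for most genes, while purple squares (labelled Wip1-/- unirradiated) are often the outermost; Sod3 has all 3 points beyond the 2-fold line on the left.

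The 3 largest upward ratios among the 38 in irradiated Wip1+/+ cells were those of Gss, Gclc and Slc7a11, all of glutathione synthesis, none reaching 1.5-fold. Gss, glutathione synthetase, read 941 and 1335, a log2 ratio of 0.50, and its other probe set read 771 and 997.5, a log2 ratio of 0.37. Gclc, the catalytic subunit of the rate-limiting glutamate-cysteine ligase, read 791 and 1114.5, a log2 ratio of 0.49. Its other probe set read 602 and 669.6, a log2 ratio of 0.15. Gclm, the modifier subunit of that ligase, read 1015 and 954, a log2 ratio of -0.09, so the subunits differed in direction. On the arrays labelled Wip1-/- Gclm read 896 and 913, and Gclc 897 and 915. Slc7a11, the cystine importer that feeds this pathway, had a log2 ratio of 0.49 at signals of 55.6 and 78.3, near the floor. Its other probe set went the opposite way, at 68.0 and 35.0. Gsr, which reduces oxidized glutathione, had a log2 ratio of 0.21 by its brightest probe set and -0.12 by the other.

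Nfe2l2 itself read 2908 and 3475 in Wip1+/+ cells, a log2 ratio of 0.26, and Keap1 read 794 and 701.5, a log2 ratio of -0.18. On the arrays labelled Wip1-/- Keap1 read 531.5 and 729, and its other probe set read 299 and 237 in Wip1+/+ and 246 and 285 there, so the groups overlapped. Classical Nrf2 targets were close to their unirradiated signal in Wip1+/+ cells. Hmox1, heme oxygenase, read 4383 and 3986, Nqo1, a quinone reductase, 305 and 286, and Srxn1, sulfiredoxin, 921 and 841. Their log2 ratios were -0.14, -0.10 and -0.13. Txnrd1, the selenoenzyme that reduces thioredoxin, read 8230 and 9143, a log2 ratio of 0.15. Me1, a cytosolic NADPH source, read 5051 and 4936, with a log2 ratio of -0.03. Among genes of mean signal 500 or more, as 4 of these 5 are, the SD between probe sets was 0.18, and it was 0.14 among the listed genes of that brightness. By their brightest probe sets only Txnrd1, at 0.15, exceeded the second of these, and Nqo1 is dimmer. The other Txnrd1 probe sets gave -0.20 and 0.26, and the other Srxn1 probe sets past the filter 0.04 and 0.19. An SD between probe sets does not cover differences between cultures, so passing it shows no response.

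The comparison of irradiated cells between the genotype labels does not use the array that stood apart. With the floor, none of the 38 genes was counted at 2-fold there, while on the array labelled Wip1-/- the 2-fold shares over all genes were 2.35% higher and 2.94% lower. The ratios of Sod3 and Slc7a11 are lower bounds in this pair, and with no floor 2 of the 38 were at least 2-fold lower. At 1.5-fold, 3 of the 38 were lower, against 7.95% of all genes, and none was higher, against 6.6%. The 3 were Sod3, Slc7a11 and Gsta4. Gsta4, a glutathione transferase that conjugates lipid peroxidation aldehydes, read 659 in irradiated Wip1+/+ cells and 417 in those labelled Wip1-/-, 1.58-fold lower. Before irradiation it read 493 and 460, so the arrays were closer there. Slc7a11 read 78.3 and 25.7, at least 1.68-fold lower, with 35.0 and 41.8, both under the floor, by its other probe set. The median log2 ratio of the 38 was -0.06, and over all genes it was 0.00, with an SD between probe sets of 0.41.

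**Figure D2:**
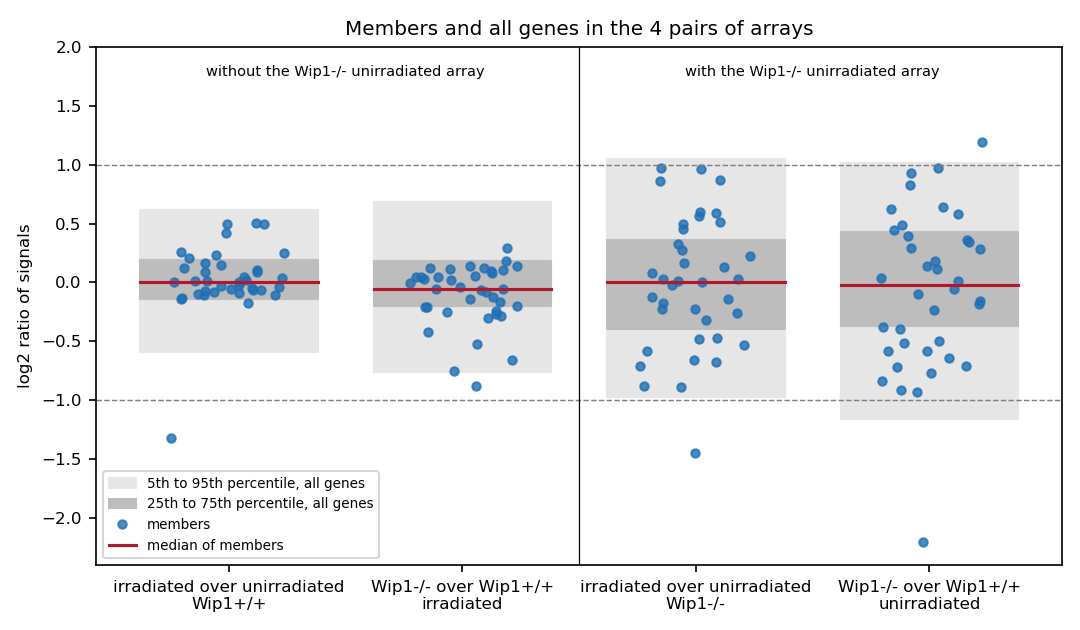
Log2 ratio of signals (vertical axis) in the 4 pairs of arrays, with points for the 38 genes, red lines for their medians and grey bands for all 11546 genes (5th to 95th and 25th to 75th percentile); dashed lines mark 2-fold. The points spread more widely in the pairs that include the Wip1-/- unirradiated array, as the grey bands do, and the medians stay near 0 in all 4.

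Sod3 was the one gene of the 38 with both arrays labelled Wip1-/- at least 1.5-fold below both Wip1+/+ arrays, against 2.48% of all genes. None was at least 1.5-fold above, against 1.92%. The mean of Sod3 passed the filter only through its unirradiated Wip1+/+ signal, so its place among the genes counted follows from that high value and is a description. With stricter filters Sod3 did not enter, and with the median over probe sets it had no such gap. Its brightest probe set read 214 and 85.5 in Wip1+/+ and 11.2 and 14.0 on the arrays labelled Wip1-/-. The signal was lower after irradiation in Wip1+/+, 2.50-fold, and under the floor on both arrays labelled Wip1-/-. These were at least 4.60-fold lower than Wip1+/+ before irradiation and at least 1.84-fold lower after it. The other probe set, whose mean lay under the filter, read 103 and 46.7 in Wip1+/+, 2.21-fold lower after irradiation. It read 37.5 and 15.2 on the arrays labelled Wip1-/-, both under the floor. Both probe sets were thus highest in unirradiated Wip1+/+ cells, but by the other one irradiated Wip1+/+ cells were already at the floor, so it gives no fold between the irradiated genotypes. The macrophage markers were also lower on both arrays labelled Wip1-/-, as given above, and their part in this result was not tested.

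**Figure D3:**
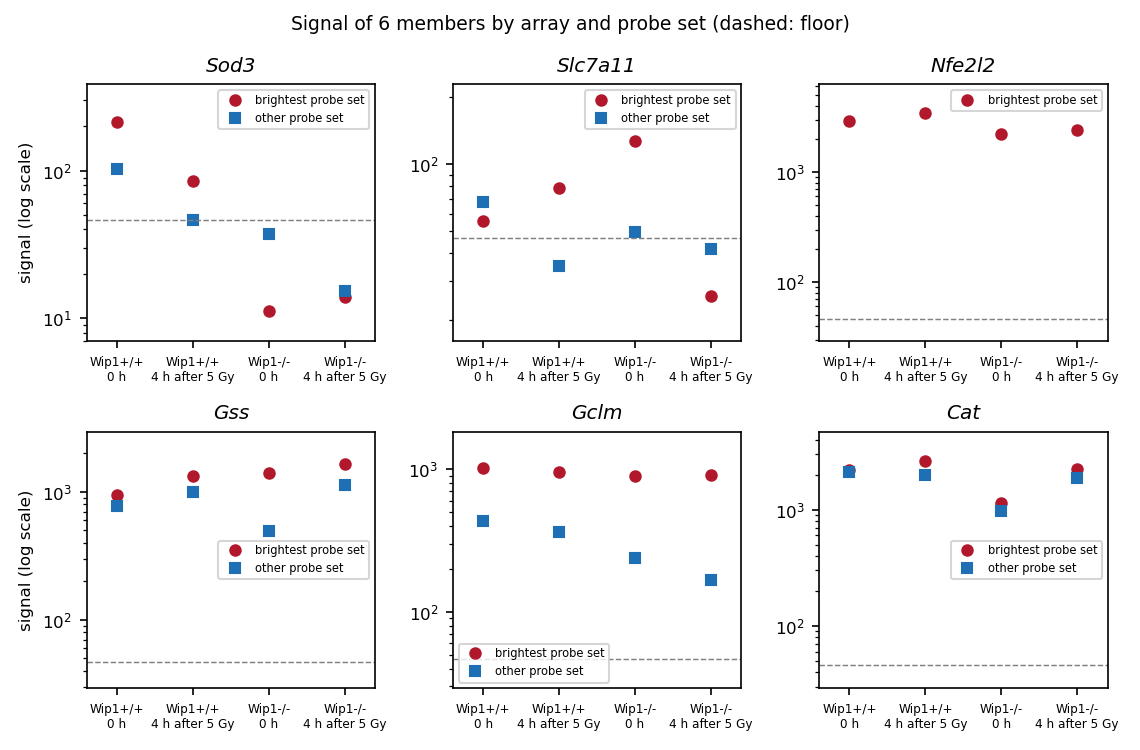
Signal of 6 genes on each array (vertical axis, log scale) for the brightest probe set (red) and the other (blue) where it rose above the floor on any array; the dashed line is the floor of 46.5. Both Sod3 probe sets lie highest in unirradiated Wip1+/+ cells and under the floor on the arrays labelled Wip1-/-, while the Gss and Slc7a11 probe sets part on the Wip1-/- unirradiated array.

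Smaller genotype gaps stood in other genes. For 10 of the 38, both arrays labelled Wip1-/- lay below both Wip1+/+ arrays by any amount, a position 18.7% of all genes held. For 7 both lay above, as for 20.9% of all genes. Nfe2l2 was among the 10, at 2908 and 3475 in Wip1+/+ and 2212 and 2423 on the arrays labelled Wip1-/-. The lowest Wip1+/+ signal was 1.20-fold above the highest one labelled Wip1-/-. Gstm1, a mu-class glutathione transferase of a family with near-identical copies, read 781 and 749 against 500.5 and 561, a gap of 1.34-fold. In 2 of its other 3 probe sets the groups overlapped, at 458 and 418 against 330 and 457, and at 62.2 and 122 against 21.2 and 100.2. Fth1, the ferritin heavy chain that stores iron, read 24262 and 23688 against 16993 and 20630.5, and its other probe set had the same order. For Gclm the brightest probe set had a gap of 1.05-fold, and the other read 432 and 362 against 239.6 and 167.5, a gap of 1.51-fold. Gss lay above instead, at 941 and 1335 against 1404.5 and 1639, a gap of 1.05-fold, but its other probe set read 490 on the unirradiated array labelled Wip1-/-, the lowest of the 4.

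Comparisons with the unirradiated array labelled Wip1-/- spread more widely, for these genes and for all genes. Irradiated over unirradiated cells labelled Wip1-/-, 1 of 38 was at least 2-fold lower, against 4.62% of all genes, and 0 were higher, against 5.7%. The 1 was Slc7a11, which read 127 and 25.7, at least 2.73-fold lower. Its mean passed the filter only through that 127, on the array that stood apart, so its 2-fold counts in pairs with that array follow from the value that let it in. By its other probe set it read 49.5 and 41.8. At 1.5-fold, 6 of the 38 were higher, against 15.5% of all genes, and 6 lower, against 15.4%. With both genotypes compared before irradiation, Slc7a11 was 2.28-fold higher on the array labelled Wip1-/-, and 5.14% of all genes were at least 2-fold higher. Its other probe set, whose mean lay under the filter, had the opposite order, at 68.0 in Wip1+/+ and 49.5 labelled Wip1-/-. Sod3 was the 1 gene at least 2-fold lower, against 6.83%, and it passed the filter only through its unirradiated Wip1+/+ signal. At 1.5-fold, 6 were higher, against 16.6% of all genes, and 9 lower, against 16.3%. These pairs share 1 array, so the same low or high signal enters both. The median log2 ratio of the 38 was 0.00 and -0.02 in them, and the SD between probe sets over all genes was 0.62 and 0.65.

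Without that array, irradiated cells labelled Wip1-/- can be set against both Wip1+/+ arrays together, by the mean of their log2 signals. There Sod3 was the 1 gene at least 2-fold lower, against 2.58% of all genes, and 0 were higher, against 1.66%. The Sod3 value is a bound from a signal under the floor, and the unirradiated Wip1+/+ signal that let Sod3 in is part of it. On the 3 remaining arrays, the highest and lowest signal lay within 1.5-fold for 34 of the 38 (89.5%). The share was 75.4% over all genes and 92.3% over genes of mean signal 500 or more, and 94.3% for the 35 of the 38 with such a mean. The 4 exceptions were Sod3, Gss, Slc7a11 and Gsta4. The log2 irradiation ratio labelled Wip1-/- minus that of Wip1+/+ uses all 4 arrays, including the unirradiated one labelled Wip1-/-. It was 1 or more in 2 genes, Tkt and Sod3, against 6.45% of all genes, and -1 or less in Slc7a11, against 6.4%. Unirradiated cells labelled Wip1-/- gave the lowest Tkt signal of the 4 arrays, 10727, and the highest of Slc7a11, 127. By the other bright Tkt probe set the irradiation log2 ratios were 0.14 labelled Wip1-/- and -0.02 in Wip1+/+. For Sod3 both signals labelled Wip1-/- were under the floor, so its value is the Wip1+/+ ratio with the sign turned and shows no difference in response.

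Peroxiredoxins reduce hydrogen peroxide with thioredoxin. Prdx2, a cytosolic form, read 12867 and 12897 in Wip1+/+ and 24481 and 13343.5 on the arrays labelled Wip1-/-. Prdx4, the form of the endoplasmic reticulum, read 4324 and 4439 against 8469 and 4579. In both genes 3 arrays were nearly equal and the unirradiated array labelled Wip1-/- was high, 1.90-fold and 1.96-fold over unirradiated Wip1+/+. Other probe sets did not show a difference of that size. The other one of Prdx2 read 1932 and 1826 against 1643 and 1800, and that of Prdx4 next in brightness 940 and 1136 against 905 and 1097. The dimmest Prdx4 probe set past the filter gave a log2 ratio of 0.30 between the unirradiated genotypes. Prdx3, the mitochondrial form with 1 probe set, read 2707 and 2887 against 3794 and 2734.

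The thioredoxins, small disulfide reductases that supply the peroxiredoxins, had the same array highest by their brightest probe sets. Txn1, the cytosolic form, read 24197 and 22458 in Wip1+/+ and 31739.5 and 25417.5 on the arrays labelled Wip1-/-. Its other probe set read 248 and 222 against 174 and 189, so that array was the lowest there and the genotypes were in the opposite order. Txn2, the mitochondrial form, read 2300 and 2334 against 3578 and 2241, and its other 2 probe sets had log2 ratios of -0.06 and 0.10 between the unirradiated genotypes, against 0.64 by the brightest. Txnrd1 read 8230 and 9143 against 8298 and 8166, with the groups overlapping. Of its other 2 probe sets, one read 1472 and 1281 against 1153.5 and 1165, and the other 364 and 436 against 195 and 381.

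Pgd and Me1 make NADPH, the electron source for both systems, while Tkt and Taldo1 belong to the non-oxidative branch of the pentose phosphate pathway. By the brightest probe sets 3 of these 4 were lowest on the unirradiated array labelled Wip1-/-, as 3959 of all 11546 genes were, and Taldo1 was highest there. Tkt, transketolase, read 20149 and 19340 in Wip1+/+ and 10727 and 20911 on the arrays labelled Wip1-/-, 1.88-fold lower before irradiation. Its other bright probe set read 4429.5 and 4369 against 4610 and 5079, with no such low value. Pgd, phosphogluconate dehydrogenase, read 7796 and 8482 against 4778.5 and 8751, and among its other probe sets log2 ratios between the unirradiated genotypes ran from -0.33 to 0.19. Me1 read 5051 and 4936 against 3366 and 4813, while its other probe set read 3168 and 3036.5 against 3960 and 3225, in the opposite direction. Taldo1, transaldolase, read 3358 and 3949 against 4299 and 3808.

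Among 17 genes with several probe sets of mean signal 500 or more, 5 had them on the same side of 1 between the unirradiated genotypes: Cat, Fth1, Gclc, Sod1 and Srxn1. Catalase was the one in which all of them also passed 1.5-fold. How many of all genes do either was not counted, so these counts are a description. Cat, the peroxisomal enzyme that splits hydrogen peroxide, read 2184 and 2603 in Wip1+/+ and 1144 and 2248 on the arrays labelled Wip1-/-. Its other probe set read 2130 and 1980 against 970 and 1872. Both were thus lowest on the unirradiated array labelled Wip1-/-, 1.91-fold and 2.19-fold below unirradiated Wip1+/+. Sod1, the cytosolic superoxide dismutase, read 5965 and 5765 against 4232 and 6368, and its next probe set 4530.5 and 4980 against 3428 and 4835. Sod2, the mitochondrial form, read 2558.5 and 2869 against 1971 and 2919, while its next probe set read 2308 and 2565 against 2391 and 2543. The dimmest Sod2 probe set past the filter read 411 and 292 against 129 and 245, so the genotypes did not overlap there and it was 3.18-fold lower before irradiation. The remaining dismutases thus differed less between the irradiated arrays than Sod3, with log2 ratios of 0.14 and 0.02.

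The glutathione peroxidase family, several members of which use glutathione to reduce peroxides, includes Gpx4, the enzyme that reduces lipid hydroperoxides. The Gpx4 probe sets ran opposite ways on the unirradiated array labelled Wip1-/-. One read 12388 and 11524 in Wip1+/+ and 19141 and 12160.5 on the arrays labelled Wip1-/-, the other 11599 and 10335 against 6603 and 11090.0. Gpx1, the cytosolic form, read 14598 and 13863 against 14063 and 12000.5. Gpx3, a secreted form, read 1430 and 1444 against 1465 and 1546, within 1.08-fold over all 4 arrays. Gpx8, of the endoplasmic reticulum, read 7084 and 6965 against 4163 and 6312.

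Glutathione transferases attach glutathione to electrophiles. Gsto1, an omega-class form, read 20787 and 19647 in Wip1+/+ and 25270 and 21588 on the arrays labelled Wip1-/-, and its other probe set 14118 and 14522 against 8994 and 17953. The probe sets thus placed the unirradiated array labelled Wip1-/- at opposite ends. Gstp1, a pi-class form with a near-identical neighbouring copy, read 11330 and 10848 against 15439 and 11095. Gstm5 read 2946 and 2960 against 5217.5 and 3185, 1.77-fold higher before irradiation, and has 1 probe set.

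Among the genes of heme, iron, metal and carbonyl handling, 6 of 7 had a ratio below 1 between the irradiated genotypes, all under 1.5-fold, where 5848 of all 11546 genes did. One of the 6, Akr1b8, was nearly equal, at 2720 and 2714. Hmox1 read 4383 and 3986 in Wip1+/+ and 4821.5 and 3227.5 on the arrays labelled Wip1-/-, a log2 ratio of -0.30 after irradiation. Nqo1 read 305 and 286 against 171 and 311.5, with 1 array low. Mt1 read 7478 and 7520 against 9184.5 and 6355.5, and Mt2 read 4461 and 4599 against 2713 and 3827. Between the irradiated arrays these neighbouring metallothioneins were alike, with log2 ratios of -0.24 and -0.27, and between the unirradiated arrays they ran apart, at 0.30 and -0.72. Akr1b8, an aldo-keto reductase, read 2551 and 2720 against 2166 and 2714, and Ephx1, microsomal epoxide hydrolase, 5917 and 6353 against 5295.5 and 5332.

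Probe sets of one gene agreed less in pairs with the unirradiated array labelled Wip1-/-. Of the 38 genes, 21 had several probe sets past the filter, with 32 beside the brightest ones. In irradiated over unirradiated Wip1+/+ cells, 2 of the 32 differed from the brightest by at least 1.5-fold, and between the irradiated genotypes 3 did. In the pairs with that array the counts were 17 and 16 of 32. Over 17 genes with several probe sets of mean signal 500 or more, the SD between probe sets was 0.14 and 0.17 in the pairs without that array, and 0.53 and 0.52 in those with it. Over all 2317 genes with such probe sets it was 0.18 and 0.23, and 0.54 and 0.55. Among the 17, only Cat had all such probe sets at least 1.5-fold apart the same way in the pairs with it. Neither the counts of probe sets nor that of Cat were made over all genes.

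**Figure D4:**
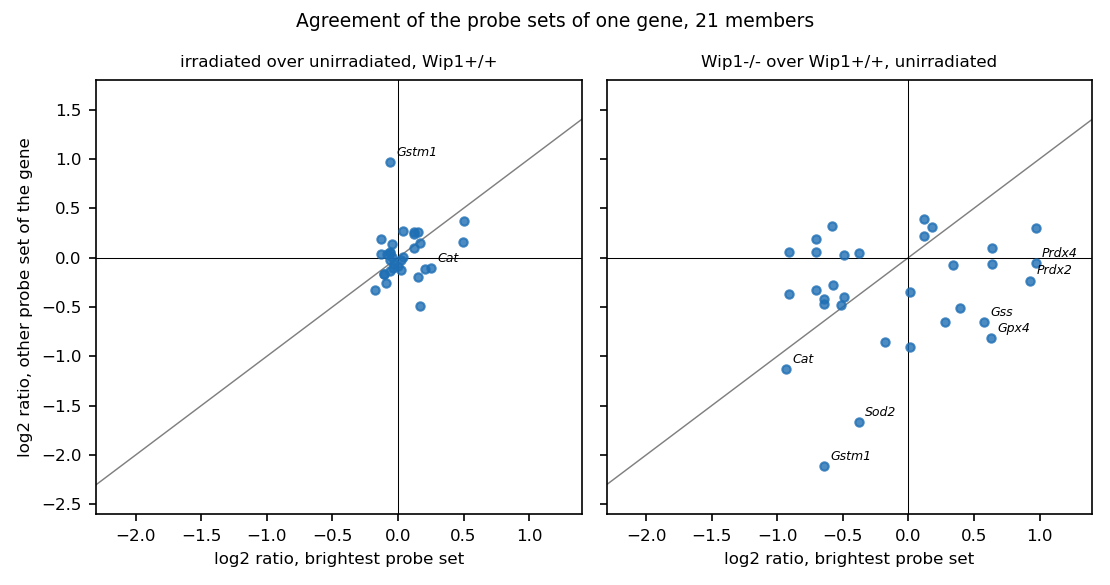
Log2 ratio by the brightest probe set (horizontal axis) and by each other probe set of the same gene (vertical axis) for 21 genes, in irradiated over unirradiated Wip1+/+ cells (left) and in unirradiated Wip1-/- over Wip1+/+ cells (right); the diagonal marks equality and genes 1 or more apart, and Cat, are named. Points cluster near 0 on the left and scatter far from the diagonal on the right, with Cat close to it.

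Further genes of the pathway were counted in the same way. Of 77 listed, 73 had a probe set of 1 symbol and 62 entered. After irradiation of Wip1+/+ cells 2 of the 62 were at least 2-fold higher, against 1.58% of all genes, and 0 lower, against 1.5%. Their median log2 ratio was 0.05. Chac1, which degrades glutathione, read 440 and 1125 in Wip1+/+ and 1319 and 1568 on the arrays labelled Wip1-/-. Both arrays labelled Wip1-/- thus lay above both Wip1+/+ arrays, by 1.17-fold at the closest. Cybb, the phagocyte NADPH oxidase that makes superoxide, read 103 and 215 against 43.5 and 57.4, with one other probe set at 119 and 119 against 11.4 and 57.8, and another at 87.6 and 86.9 against 79.1 and 91.2. The macrophage markers were lower on both arrays labelled Wip1-/-, as the first 2 of these probe sets were. Between the Wip1+/+ arrays their sum was nearly equal, at 10786 and 10861, unlike the brightest Cybb probe set. Their part was not tested. Between the irradiated genotypes 1 of the 62 was at least 2-fold higher, against 2.35% of all genes, and 1 lower, against 2.94%. The higher one was Msrb2, a mitochondrial methionine sulfoxide reductase (80.7 against 185), and the lower one was Cybb. In irradiated over unirradiated cells labelled Wip1-/- 1 was higher, against 5.7% of all genes, and 3 lower, against 4.62%. Between the unirradiated genotypes 5 were higher, against 5.14% of all genes, and 1 lower, against 6.83%. At 1.5-fold, 16 of the 62 were higher there, against 16.6% of all genes, and 6 lower, against 16.3%. Nox4, an NADPH oxidase of fibroblasts, was among the 5 at 614.5 and 1511, but its other probe set read 472 and 454.

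Redox genes known as p53 targets were described beside them, since the study addressed p53. All 9 of 12 listed that had a probe set of 1 symbol entered, with 5 above and 4 below 1 in irradiated Wip1+/+ cells and a median log2 ratio of 0.15. On the arrays labelled Wip1-/- 7 were above 1 and 2 below, with a median of 0.43, against the unirradiated array that stood apart. With irradiated cells labelled Wip1-/- set against both Wip1+/+ arrays instead, 3 were above and 6 below, with a median of -0.04. Of all 11546 genes, 5982 were above and 5560 below in that comparison. Over all genes the medians were -0.03 and 0.01. The share of all genes above 1 was 52.3% in irradiated Wip1+/+ cells and 47.4% in the pair labelled Wip1-/-. None was at least 2-fold apart in Wip1+/+, where 1.58% of all genes were higher and 1.5% lower. At 1.5-fold, 2 of the 9 were higher there, Sesn2 and Trp53inp1, against 5.6% of all genes, and 0 lower, against 5.12%. In the pair labelled Wip1-/-, which holds the array that stood apart, 3 were at least 1.5-fold higher, against 15.5% of all genes. They were Rrm2b, Aldh4a1 and Trp53inp1, and 0 were lower, against 15.4%. At 2-fold, 1 was higher in that pair, against 5.7% of all genes. That was Trp53inp1, a p53-inducible stress protein, which read 2573 and 4471 in Wip1+/+ and 1858 and 4070 on the arrays labelled Wip1-/-. Between the irradiated genotypes its log2 ratio was -0.14. Its other probe set read 392 and 476 against 209 and 488. Sesn2, a sestrin that restrains peroxide, read 566.5 and 921 against 671 and 778.5, while its other probe set read 457 and 466 against 488 and 493. Sesn1 read 317 and 296 against 277 and 279. Its other probe sets past the filter were higher after irradiation in Wip1+/+. They read 163 and 196 against 217 and 183, and 96.0 and 127 against 125 and 180.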

How the data were processed

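RNA of 4 samples of mouse embryonic fibroblasts, 1 array each, was measured by the authors. For each probe set the authors deposited 1 intensity per array, not log-transformed. GCOS is named in the submitters' processing notes, while the sources used here give no version, background step or scaling. Each deposited column had a mean intensity of 500.0 after trimming 2% at each end, so no renormalization was applied. After removal of 64 control probe sets, 34945 of 45037 carried a single symbol in the platform annotation, and the other 10092 were left out. Values under 46.5, the 40th percentile of all pooled values, were set to that floor before log2. A gene entered if its brightest probe set had a mean of at least 67.95, the median of all means. Log2 ratios were taken between pairs of arrays, and a gene was counted at 2-fold, or at 1.5-fold, added after the data were seen. No test was run, since each group holds 1 array. The text describes the members past 2-fold, those with a genotype gap of 1.5-fold, the 2 brightest of each of 9 roles, and further members chosen after their values were seen. The members and lists were chosen with earlier results of these data known. The alternatives were 10 settings of normalization, floor, filter and probe set, and 1 that leaves out an array. Ratios were tested on simulated data. Python 3.11.15, numpy 2.4.6, pandas 2.3.3 and, for normalization alternatives, R 4.3.3 with limma 3.58.1 were used.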

Additional observations from a re-analysis of the deposited data

How the results depend on the processing

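No paired analysis was possible because each group holds 1 array and no replicate numbers are given. Over the 10 settings the median log2 ratio of the 38 genes, or of the 35 to 37 that entered under 3 settings, ran from -0.02 to 0.02 in Wip1+/+ irradiation and from -0.07 to 0.06 in irradiation labelled Wip1-/-. It ran from -0.08 to 0.05 between unirradiated genotypes, from -0.06 to -0.04 between irradiated genotypes, and from -0.20 to 0.12 for the difference of irradiation ratios. With the unirradiated array labelled Wip1-/- left out, the median was -0.03. Counts moved where 1 or 2 genes crossed 2-fold. In Wip1+/+ irradiation, filters at the 67th percentile and at a mean of 500 gave 0 genes lower, as they remove Sod3. In irradiation labelled Wip1-/-, both filters and the median over probe sets gave 0 lower, and cyclic loess and the median over probe sets gave 1 higher. Between unirradiated genotypes, both filters gave 0 higher and 0 lower, the median over probe sets 0 higher and 3 lower, and scaling by the brighter probe sets 2 higher. Between irradiated genotypes, a floor at the 25th percentile or no floor gave 2 lower. For the difference of irradiation ratios, quantile normalization, scaling by the brighter probe sets, both filters and leaving out probe sets named _x_at or _s_at gave 1 higher. Both filters and the median over probe sets gave 0 lower there. The genotype gap of 1.5-fold held 0 genes under both filters and under the median over probe sets, where Sod3 had a log2 ratio of -0.44 between irradiated genotypes. With no floor its log2 ratios between genotypes were -4.25 and -2.61, from signals near background. Choice of probe set turned the direction of genes past 1.5-fold: with the median over probe sets, Prdx4 and Gpx4 turned in irradiation labelled Wip1-/-, and Tkt, Txn2 and Gpx4 between unirradiated genotypes. Without _x_at and _s_at probe sets, Pgd and Gpx4 turned in both pairs, and Tkt in the second. The cause was not tested.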
